A study of Mus musculus with 48 samples.

Results

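Pnpla3, Tm6sf2, Mboat7, Hsd17b13, Gckr and Trib1 are the mouse orthologs of genes at which human genetic studies have placed common risk variants for fatty liver disease. These 6 genes were taken by symbol from a table of 29221 genes measured by RNA-seq in whole livers, and all 6 were found. All 48 mice carried a floxed Pparg gene, which encodes the nuclear receptor PPARγ. After 16 weeks on diet they received AAV8-TBG-Cre, a virus that expresses Cre recombinase from a hepatocyte promoter (labelled knockout), or AAV8-TBG-null, the same vector without Cre (control). Males and females were fed the high fat diet (HF) for 34 weeks, or for 18 weeks and then switched for 16 weeks to HFCF, which adds cholesterol and fructose to the fat. Other females were fed a low fat diet (LF) for 34 weeks. The 4 male groups had 6 livers each and the 6 female groups had 4 livers each, all from adult mice. Males and females had separate ranges of animal numbers, so sex and cohort cannot be told apart.

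Libraries held 15338239 to 22072884 reads on genes. Pparg itself was not lower in any labelled-knockout group. It was higher in male HFCF labelled knockouts, at 56.3 CPM on average against 32.4 in controls (CPM, a gene's reads scaled to the size of the library), with a log2 fold change of 0.81 (edgeR adjusted p = 0.000805), and in female HFCF labelled knockouts (45.8 against 23.7 CPM, 0.97, adjusted p = 0.0422). The counts are per gene and do not separate a deleted part from the rest, so they do not check the labels, and the groups are called labelled knockouts throughout. All 7 hepatocyte markers, such as albumin (Alb), had reads in every group, and their summed level ran from 37650 to 117900 CPM. In whole liver, fewer cells of a type and less RNA per cell cannot be told apart. Markers of pancreas summed to at most 1.202 CPM in any library, and those of adipocytes to at most 19.91 CPM.

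The 6 genes act at different points of liver fat handling. PNPLA3 is a lipid droplet protein related to the triglyceride lipase ATGL, and its human risk variant is the best known inherited factor in fatty liver disease. HSD17B13 is a second droplet protein, an enzyme whose loss-of-function variants are associated with less liver injury. TM6SF2 sits in the membranes where very low density lipoprotein (VLDL) particles are loaded with lipid for export. MBOAT7 attaches arachidonic acid to lysophosphatidylinositol, a membrane phospholipid. GCKR is a hepatocyte regulatory protein that limits the entry of glucose into glycolysis and fat synthesis. TRIB1 is a pseudokinase that brings the transcription factor C/EBPα to the ubiquitin ligase COP1 for degradation.

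The genes lie on 4 chromosomes (GRCm38). Pnpla3 (ENSMUSG00000041653) spans 84167837 to 84187236 on the plus strand of chromosome 15, where Trib1 (ENSMUSG00000032501) spans 59648350 to 59657099, also on the plus strand. Gckr (ENSMUSG00000059434, plus strand, 31297443 to 31327314) and Hsd17b13 (ENSMUSG00000034528, minus strand, 103955440 to 103977410) are both on chromosome 5. Tm6sf2 (ENSMUSG00000036151) spans 70072924 to 70080066 on the plus strand of chromosome 8, and Mboat7 (ENSMUSG00000035596) spans 3677789 to 3693523 on the minus strand of chromosome 7. All are annotated as protein coding. Mboat7 overlaps Tsen34 on the opposite strand by 661 bases, and because the libraries were not strand specific, reads there cannot be told apart. Tsen34 had up to 897 reads in a library, against up to 1133 for Mboat7. Pnpla3 overlaps Gm49513 (5323 bases) and Mir6392 (108 bases) on its own strand and the pseudogene Gm20369 (307 bases) on the opposite one. These had up to 7, 22 and 10 reads in a library, against up to 526 for Pnpla3.

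RefSeq promoter windows (GRCm38.p6, 250 bases before to 50 bases after the start) were matched for 4 of the 6 genes, namely Pnpla3, Mboat7, Hsd17b13 and Gckr. The 3 whose genes passed a test in at least 1 comparison are printed 5′ to 3′ on the gene's strand, with matched motifs in capitals. They belong to 2 droplet genes and to Gckr, whose level varied together with that of Pnpla3 between mice.
Pnpla3, chr15:84167566-84167865, plus strand: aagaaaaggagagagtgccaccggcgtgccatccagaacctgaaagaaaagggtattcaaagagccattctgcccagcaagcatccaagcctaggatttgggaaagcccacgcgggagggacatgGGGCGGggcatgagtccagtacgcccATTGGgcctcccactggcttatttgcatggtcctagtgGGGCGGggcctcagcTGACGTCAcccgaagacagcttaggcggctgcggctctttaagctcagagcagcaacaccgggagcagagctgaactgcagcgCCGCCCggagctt
Hsd17b13, chr5:103977339-103977638, minus strand: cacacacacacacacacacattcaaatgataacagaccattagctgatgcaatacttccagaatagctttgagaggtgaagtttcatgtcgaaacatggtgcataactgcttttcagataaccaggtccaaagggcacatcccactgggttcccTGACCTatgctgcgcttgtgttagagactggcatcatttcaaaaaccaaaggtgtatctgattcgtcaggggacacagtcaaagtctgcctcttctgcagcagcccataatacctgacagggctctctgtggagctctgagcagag
Gckr, chr5:31297313-31297612, plus strand: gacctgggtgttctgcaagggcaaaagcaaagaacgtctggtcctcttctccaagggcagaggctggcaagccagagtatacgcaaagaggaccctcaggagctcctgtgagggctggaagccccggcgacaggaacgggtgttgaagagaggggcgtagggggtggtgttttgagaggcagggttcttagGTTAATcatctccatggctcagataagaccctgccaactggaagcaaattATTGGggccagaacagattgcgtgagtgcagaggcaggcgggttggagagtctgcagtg

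Both strands were searched for 8 motifs. Capitals in the Pnpla3 window mark 3 GC boxes (GGGCGG), 1 CCAAT box (CCAAT) and 1 cAMP response element (TGACGTCA, bases -46 to -39 from the start). Of 32851 promoters in the same table, 35.7% held a GC box, 37.4% a CCAAT box and 1.79% that cAMP response element. The Hsd17b13 window held 1 nuclear receptor core motif (AGGTCA, on the opposite strand, bases -96 to -91), as did 16.3% of all promoters. The Gckr window held 1 CCAAT box and 1 HNF1-type motif (GTTAAT, bases -59 to -54), the latter found in 7.1% of promoters. None of the 4 windows held an E box (CACGTG, 7.15% of promoters), a sterol response element (TCACNCCAC, 1.24%) or a PPAR element of the DR1 type (which contains the core motif, 0.0396%). A match is a run of letters and not a measured binding site.

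Expressed per kilobase of gene model, the levels of the 6 genes spread widely. The order depends on the annotated length, which was 1548 bases for Pnpla3 and 8339 for Mboat7. Group means of Hsd17b13 ran from 208 to 345 CPM per kilobase and those of Gckr from 60.5 to 107. Tm6sf2 followed with 10.4 to 41.5 CPM per kilobase, then Trib1 with 7.05 to 12.4. Mboat7 had 5.40 to 6.32 and Pnpla3 1.47 to 9.78 CPM per kilobase. The spread between mice of a group was of a different size for each gene. The median coefficient of variation within groups was 6.65% for Mboat7, 10.3% for Gckr, 13.7% for both Hsd17b13 and Trib1, 15.8% for Tm6sf2 and 61.4% for Pnpla3. Pnpla3 also had the fewest reads, 5 to 526 in a library.

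**Figure D1:**
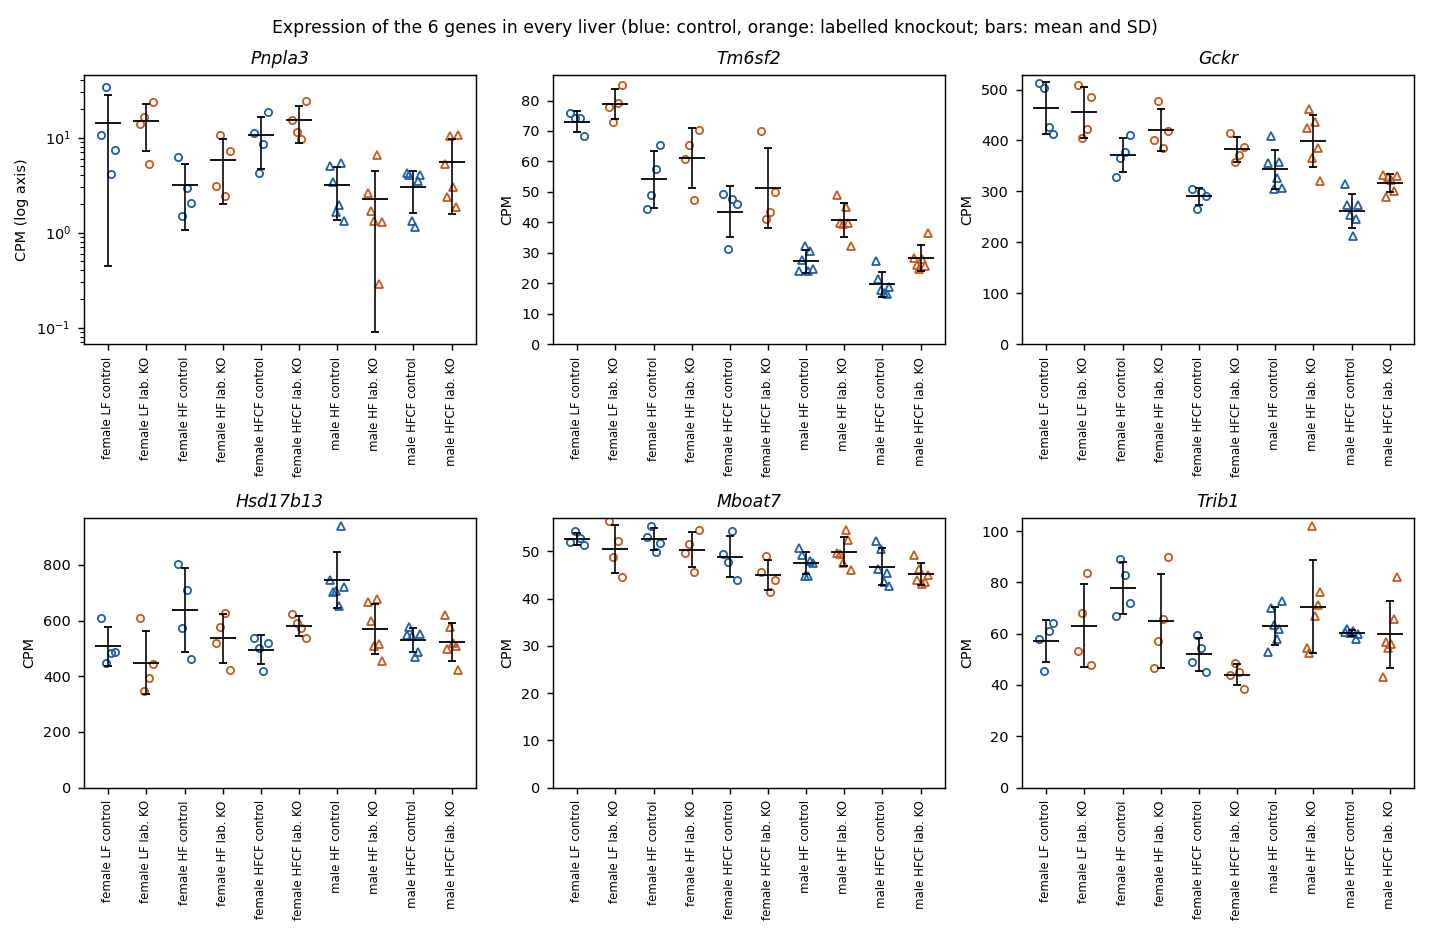
CPM of the 6 genes in every liver, by group, with the mean and SD as bars. Circles are females, triangles are males, blue is control and orange is labelled knockout (lab. KO). The Pnpla3 axis is logarithmic. Tm6sf2 lies lower in males than in females, and Mboat7 stays between 41.37 and 56.37 CPM.

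Expression was compared in 17 pairs of groups, 5 by labelled knockout, 8 by diet and 4 by sex, with edgeR's quasi-likelihood test. Calls are results with a Benjamini-Hochberg adjusted p, taken over all tested genes, under 0.05. Of 102 gene-by-comparison results, 19 were called. Tm6sf2 gave 10 of them, Gckr 4, Pnpla3 2, Hsd17b13 2, Trib1 1 and Mboat7 0. Comparisons that use the same group share its livers, so their calls are not independent. The share of all genes called by edgeR, in either direction, is given with each comparison below. No such share is given for counts at an unadjusted p or by DESeq2, so those counts cannot be read against it. The median log2 fold change of the 6 genes was 0.11 in labelled-knockout HF males (all genes 0), -0.22 on HFCF against HF in control males (all genes 0.01) and -0.29 on HFCF against LF in control females (all genes -0.025).

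**Figure D2:**
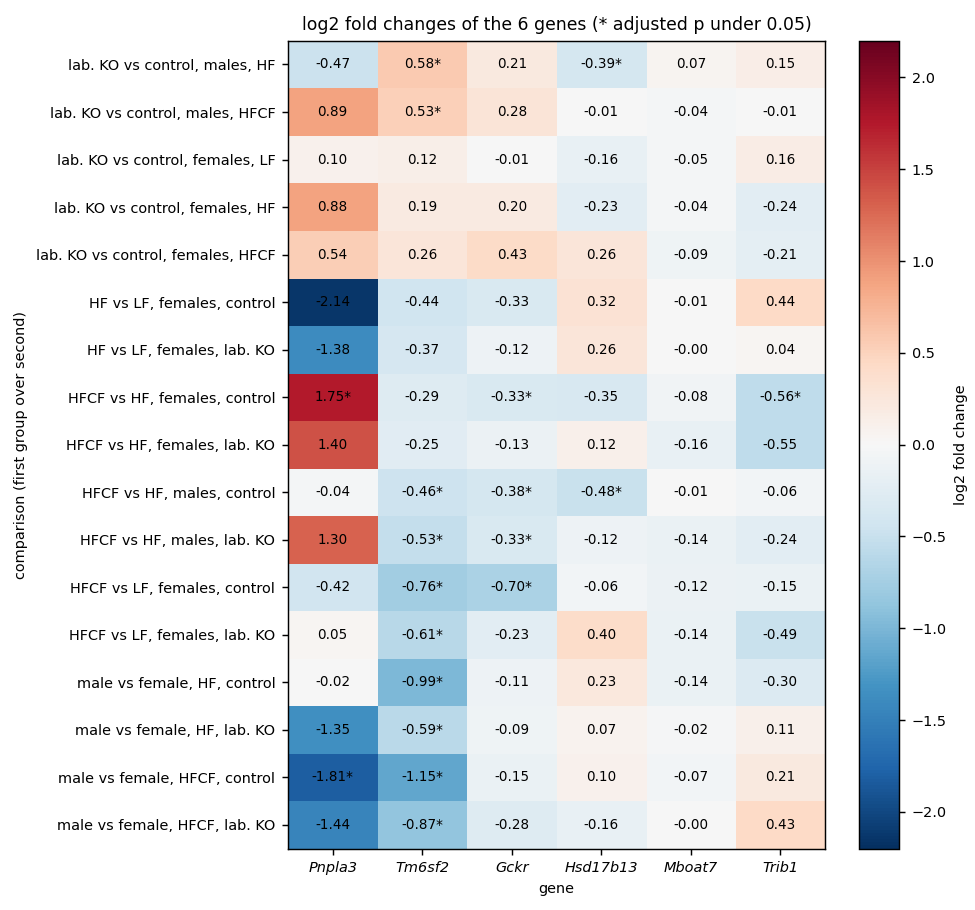
log2 fold changes of the 6 genes (columns) in the 17 comparisons (rows), first group over second, in colour and digits. An asterisk marks an adjusted p under 0.05, and 10 of the 19 asterisks are in the Tm6sf2 column.

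Between labelled knockouts and controls, 2 of the 6 genes were called in HF males, where Tm6sf2 rose and Hsd17b13 fell. Of all genes, 18.5% were called there. In HFCF males 1 of 6 was called, Tm6sf2, which rose, with 2.21% of all genes called. In females 0 of 6 were called by edgeR on LF (0% of all genes), on HF (0%) and on HFCF (0.0534%). At an unadjusted p under 0.05 the female counts were 0, 0 and 1. By the DESeq2 Wald test they were 0, 0 and 1, the last being Gckr on HFCF.

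Between diets, most calls among the 6 genes were falls on HFCF. There 12% to 41.7% of all genes were called in either direction, and the share that fell is not given. In control males 3 of 6 were called on HFCF against HF, all lower (Tm6sf2, Hsd17b13 and Gckr), with 22.3% of all genes called. In labelled-knockout males 2 of 6 were called, both lower (Tm6sf2 and Gckr), with 41.7% of all genes called. In control females 3 of 6 were called on HFCF against HF (30.8% of all genes), Trib1 and Gckr lower and Pnpla3 higher. In labelled-knockout females 0 of 6 were called by edgeR (14.5% of all genes), 2 at an unadjusted p under 0.05 and 2 by DESeq2. On HFCF against LF, 2 of 6 fell in control females (Tm6sf2 and Gckr, 35.2% of all genes called) and 1 of 6 in labelled-knockout females (Tm6sf2, 12% of all genes). On HF against LF, 0 of 6 were called by edgeR in control females (0.696% of all genes) and 0 of 6 in labelled knockouts (0.155%). Unadjusted, 4 and 2 of the genes were under 0.05 in those last pairs, and DESeq2 called 1 and 0. These counts have no share of all genes beside them.

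Between the sexes, Tm6sf2 was lower in males in all 4 comparisons. In controls on HF it was the 1 gene called of 6, with 18.1% of all genes called. In labelled knockouts on HF it was again the 1 called of 6 (14.3% of all genes). On HFCF, 2 of 6 were called in controls (Tm6sf2 and Pnpla3, both lower in males, 2.63% of all genes) and 1 of 6 in labelled knockouts (Tm6sf2, 5.4% of all genes).

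The markers of some other cells, but not of all, moved with the diets too. In male controls the median sum of 5 sinusoidal endothelium markers was 199.2 CPM on HF and 210.8 on HFCF. That of 4 B cell markers was 6.143 and 5.822 CPM. The median summed level of 6 macrophage markers was 175.9 CPM in male HF controls and 463.2 CPM on HFCF, and that of 5 biliary markers 153.5 and 509.4 CPM. The hepatocyte markers moved the other way, from a median of 74820 CPM in male HF controls (range 59570 to 83050) to 47930 on HFCF (37650 to 60510). Of these 7 markers, 4 fell in control males on HFCF against HF, 6 in labelled-knockout males, 5 in control females and 0 in labelled-knockout females (4 at an unadjusted p under 0.05). In male labelled knockouts on HF the hepatocyte sum was 87250 to 102200 CPM, above every control, and 6 of 7 markers rose. In the same comparison 3 of 5 erythroid markers rose (median sum 185.5 CPM in controls, 399.7 in labelled knockouts), and 3 of 6 macrophage and 3 of 6 stellate cell markers fell. On HFCF against LF, 6 of 7 fell in control females and 1 of 7 in labelled-knockout females. In the 4 sex comparisons edgeR called 0 of 7 hepatocyte markers, with 2 or 3 at an unadjusted p under 0.05. The shares of all genes called in these comparisons are those given above. The part of cell composition in the results for the 6 genes was not tested.

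Among the droplet genes, Pnpla3 varied most. In female LF controls its levels were 10.8, 34.2, 4.09 and 7.40 CPM, and in female HF controls 6.18, 1.495, 2.94 and 2.05 CPM. In female HFCF controls they were 11.2, 4.23, 8.50 and 18.5 CPM. The HF livers were mostly the lowest of the 3 diets, although the highest HF liver overlapped both other groups. The HFCF group exceeded the HF group by a log2 fold change of 1.75 (SE 0.51), with an edgeR adjusted p of 0.0301. The HF group differed from LF by a log2 fold change of -2.14 (SE 0.66), which was not called (adjusted p = 0.158). In one fit of all 10 groups it was called (adjusted p = 0.0401). The call on HFCF against HF was lost without HF replicate 2, 3 or 4 or without HFCF replicate 1 or 5, where the log2 fold change was 1.34 to 1.73 and the adjusted p 0.0680 to 0.0859.

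In labelled-knockout females the HF group again had the lowest Pnpla3 mean. Their LF livers measured 13.9, 16.6, 5.27 and 23.7 CPM, their HF livers 3.06, 10.7, 2.45 and 7.201 CPM and their HFCF livers 15.2, 11.4, 9.70 and 24.2 CPM. On HFCF against HF the log2 fold change was 1.40 (SE 0.45, adjusted p = 0.0625), and on HF against LF it was -1.38 (SE 0.51, adjusted p = 0.272). Neither was called. Leaving out HF labelled-knockout replicate 2 brought the first to an adjusted p of 0.0305. It was also called by the DESeq2 Wald test, with no filter on low counts and with a block for the replicate number (lowest adjusted p = 0.0116). The authors' deposited table gives 1.39 and an adjusted p of 0.0121 for it.

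In males Pnpla3 stayed low. Control livers had 1.32 to 5.40 CPM on HF (median 2.69) and 1.14 to 4.22 CPM on HFCF (median 3.75). Labelled knockouts had 0.288 to 6.48 CPM on HF (median 1.499) and 1.84 to 10.7 CPM on HFCF (median 4.11), with a diet difference of 1.30 on the log2 scale (SE 0.56, adjusted p = 0.0735). That difference was called without HF labelled-knockout replicate 4 or HFCF labelled-knockout replicate 5 (lowest adjusted p = 0.0078). Every HFCF control male lay below every HFCF control female, the log2 difference being -1.81 (SE 0.42, adjusted p = 0.0394). That call was lost without male HFCF control replicate 2, 3, 4, 5 or 6 or without female HFCF control replicate 1, 3 or 5, with log2 differences of -1.91 to -1.40 and adjusted p-values of 0.0584 to 0.119. On HF the sexes overlapped in controls, at a log2 difference of -0.02 (SE 0.47). In HF labelled knockouts the sex difference was -1.35 (SE 0.60, adjusted p = 0.155), with an adjusted p of 0.0251 without male replicate 4. In HFCF labelled knockouts it was -1.44 (SE 0.45, adjusted p = 0.0741), called with no filter on low counts (adjusted p = 0.0412). Pnpla3 was called in none of the 5 comparisons of labelled knockouts with controls (0 at an unadjusted p under 0.05 and 0 by DESeq2), where log2 fold changes ran from -0.47 to 0.89 and the lowest adjusted p was 0.411.

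Pnpla5, a paralog that lies 44662 bases from Pnpla3 on the opposite strand (chromosome 15, 84112356 to 84123175), was the gene most like it in pattern among 12313 genes. Pearson's r of log2 CPM over the 48 libraries was 0.906, and 0.859 after the group means were removed. Pnpla5 itself rose on HFCF against HF in control females (log2 fold change 2.09, adjusted p = 0.0396), in labelled-knockout females (2.39, adjusted p = 0.0248) and in labelled-knockout males (2.47, adjusted p = 0.0073). Its levels were low, with means of 0.548 CPM on HF and 2.36 on HFCF in control females. They were 0.914 and 4.66 CPM in labelled-knockout females and 0.392 and 2.19 CPM in labelled-knockout males. Acsl5, an acyl-CoA synthetase, had an r of 0.786 with Pnpla3 and 0.864 within groups, and Fabp5, a fatty acid binding protein, 0.822 and 0.692. Samm50, a mitochondrial outer membrane gene 5005 bases beyond Pnpla3 that shares its risk locus in humans, was called in 1 of the 17 comparisons. It fell in labelled-knockout HF males, from 102 to 87.8 CPM (log2 fold change -0.22, adjusted p = 0.0184).

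Hsd17b13 was the most highly expressed of the 6 genes, and it was highest in male HF controls. Those 6 livers measured 746.5, 703, 707, 652, 939 and 720.5 CPM. The labelled-knockout HF males measured 668, 597, 508, 676, 515 and 455 CPM, each below the control mean of 744.5, with 2 livers inside the control range. This was a log2 fold change of -0.39 (SE 0.11, adjusted p = 0.0187), and the call remained with each of the 12 livers left out in turn.

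HFCF control males had 546, 578, 545, 469.5, 487 and 553 CPM of Hsd17b13, all below all 6 HF controls. Hsd17b13 thus had a log2 fold change of -0.48 (SE 0.09, adjusted p = 0.00234), likewise called in all 12 omissions. In labelled-knockout males on HFCF the levels were 424 to 619.5 CPM (median 513), and the difference from HF was -0.12 (SE 0.11, adjusted p = 0.41). The difference between these diet effects, a log2 change of 0.36 (SE 0.15), was not called (adjusted p = 0.189). In HFCF males Hsd17b13 averaged 524 CPM in labelled knockouts and 530 CPM in controls.

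Female Hsd17b13 levels overlapped in every comparison. HF control females had 805, 572, 711 and 462 CPM, LF controls 610, 447, 484 and 488 CPM and HFCF controls 538, 503, 419 and 521 CPM. The HF group had the highest mean, but its lowest liver lay within both other ranges. The female labelled-knockout means were 449 CPM on LF, 537 on HF and 581.5 on HFCF. None of the 9 female comparisons by diet or labelled knockout was called, and neither was any of the 4 between the sexes, where log2 differences ran from -0.16 to 0.23. HFCF against HF in controls was called without HF control replicate 4 (adjusted p = 0.0477, with all livers 0.146), and HFCF against LF in labelled knockouts without LF labelled-knockout replicate 1 (0.0457, with all livers 0.166).

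Hsd17b11, the closest relative of Hsd17b13 and also a droplet protein, was called in none of the 17 comparisons and kept group means between 194.4 and 246 CPM. The list of 18 other HSD17B and retinoid genes moved in both directions in labelled-knockout HF males, where 18.5% of all genes were called. There 4 were higher and 5 lower (median log2 fold change -0.04, all genes 0). Cyp26a1, which breaks down retinoic acid, rose by 1.12 on the log2 scale. On HFCF against HF, 5 of 18 fell and 0 rose in control males (list median -0.24, all genes 0.01), with 22.3% of all genes called. Among them was Hsd17b7 (fell by 1.34, adjusted p = 0.000217), which acts in cholesterol synthesis. Raet1d (r = 0.746 over the 48 libraries, 0.607 within groups), Wfdc2 (0.732 and 0.715) and Fbxw9 (0.717 and 0.611) were most like Hsd17b13 in level.

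The droplet lipolysis list holds coat proteins such as Plin2 as well as lipases. In labelled-knockout HF males 7 of 10 tested genes of this list fell and 0 rose (median log2 fold change -0.34, all genes 0). In that comparison 18.5% of all genes were called. Pnpla2 encodes ATGL, the main droplet lipase. It fell from 110.5 to 84.7 CPM there (log2 fold change -0.39, adjusted p = 0.0018) and from 108 to 79.5 CPM in HFCF males (-0.44, adjusted p = 0.00383). Plin2, the main coat protein of liver droplets, fell by 0.86 on the log2 scale in HF males (adjusted p = 8.69e-05). Of 17 lipogenesis genes 10 fell and 0 rose in the same comparison (median -0.51), such as Me1 (-0.80) and Acacb (-0.84). In HFCF males 2 of the 11 genes of the lipolysis list fell, with 2.21% of all genes called. Of the lipogenesis genes 0 rose and 0 fell there by edgeR (5 at an unadjusted p under 0.05), with a median of 0.17. Of the 5 adipocyte markers, 2 had reads in HF control males and 1 in HF labelled-knockout males. The markers summed to 1.64 to 8.18 CPM in HF control males and to at most 0.0675 CPM in labelled knockouts. On HFCF, where 3 had reads in control males and 2 in labelled knockouts, they summed to 2.88 to 19.9 and to at most 0.385 CPM. Their part in these results was not tested.

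Tm6sf2 gave the most calls of the 6 genes. Its 6 highest group means were the female groups and its 4 lowest the male groups, from 78.8 ± 4.92 CPM (SD, n = 4) in LF labelled-knockout females to 19.7 ± 4.14 CPM (n = 6) in HFCF control males. The ratio of these means was 4.00. Every pair of neighbours in that order overlapped.

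In HF males Tm6sf2 was higher in labelled knockouts. Controls measured 24.02, 27.6, 32.3, 23.9, 30.7 and 24.6 CPM, and labelled knockouts 48.9, 39.7, 39.3, 45.0, 39.9 and 32.1 CPM. All but 1 labelled knockout exceeded every control, and the lowest, replicate 6, lay just under the highest control. This was a log2 fold change of 0.58 (SE 0.10, adjusted p = 0.00095), called in all 12 omissions.

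In HFCF males the controls measured 27.3, 21.4, 17.8, 16.7, 16.4 and 18.8 CPM and the labelled knockouts 28.4, 26.0, 24.6, 28.1, 25.8 and 36.7 CPM. The groups overlapped through control replicate 1. That liver had a library scaling factor (TMM) of 0.945, where the other HFCF control males had 1.09 to 1.18. The log2 fold change of 0.53 (SE 0.13) was close to that on HF and had an adjusted p of 0.0481, just past the threshold. The call was lost in 10 of 12 omissions, without any control except replicate 1 or any labelled knockout except replicate 3, with log2 fold changes of 0.44 to 0.55 and adjusted p-values of 0.0721 to 0.109. With DESeq2 size factors it was lost as well (adjusted p = 0.0503).

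In females all 3 differences between labelled knockouts and controls were positive and none was called. They were 0.12 on LF (SE 0.09), 0.19 on HF (SE 0.14) and 0.26 on HFCF (SE 0.19), with adjusted p-values of 1, 0.762 and 0.642. The difference between the male and female effects was 0.40 on HF (SE 0.18, adjusted p = 0.461) and 0.27 on HFCF (SE 0.24, adjusted p = 0.735), so it was not called on either diet.

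**Figure D3:**
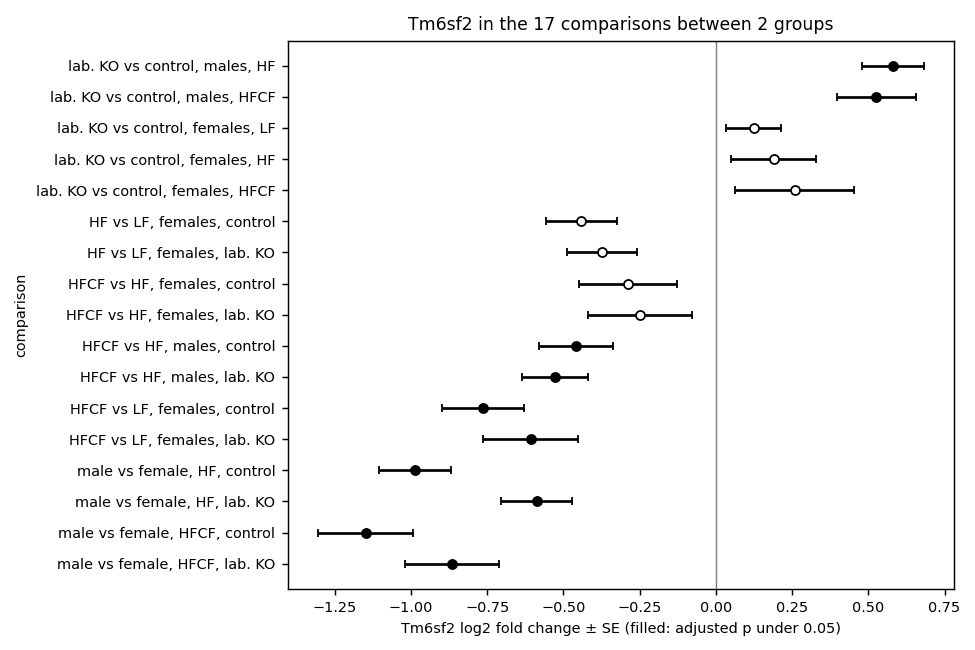
log2 fold change of Tm6sf2 ± SE in each of the 17 comparisons between 2 groups, first group over second. Filled points have an adjusted p under 0.05. All 4 male against female points and all 8 diet points lie below 0, and all 5 labelled-knockout points lie above it.

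Tm6sf2 was lower on the richer diet in all 8 diet comparisons and was called in 4. In control males it fell by 0.46 (SE 0.12, adjusted p = 0.0156) and in labelled-knockout males by 0.53 (SE 0.11, adjusted p = 0.00116) on the log2 scale on HFCF against HF. Both were called in all 12 omissions. In control females LF livers measured 75.9, 74.1, 74.1 and 68.3 CPM, HF livers 44.3, 49.1, 57.7 and 65.4 CPM and HFCF livers 49.3, 31.1, 47.8 and 46.1 CPM. Every LF liver was above every HF and every HFCF liver. HFCF against LF gave a log2 fold change of -0.76 (SE 0.13, adjusted p = 0.00248), called in all 8 omissions. HF against LF gave -0.44 (SE 0.12), not called by edgeR (adjusted p = 0.115) but called by the DESeq2 Wald test (adjusted p = 0.031). In the authors' deposited table that pair had a log2 fold change of -0.44 and an adjusted p of 0.0437.

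Labelled-knockout females had 78.0, 73.1, 79.1 and 85.1 CPM of Tm6sf2 on LF, 60.9, 65.4, 47.4 and 70.3 CPM on HF and 70.1, 41.2, 43.5 and 49.9 CPM on HFCF. The LF livers again lay above both other groups. HFCF against LF was called at a log2 fold change of -0.61 (SE 0.16, adjusted p = 0.0275), a call lost without LF replicate 2, 3 or 4 or HFCF replicate 2, 3 or 4 (log2 -0.69 to -0.52, adjusted p 0.0528 to 0.0958). Without HFCF labelled-knockout replicate 1, the fall against HF was -0.42 and was called (adjusted p = 0.0361), where with all livers it was -0.25 (adjusted p = 0.364). That liver had a library scaling factor (TMM) of 0.899, where the other HFCF labelled-knockout females had 1.08 to 1.15. What set it apart was not tested.

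The sex difference in Tm6sf2 was present in each pair of groups. In HF controls males averaged 27.2 ± 3.65 CPM (n = 6) and females 54.1 ± 9.36 CPM (n = 4), without overlap, and males were lower by 0.99 (log2, SE 0.12, adjusted p = 0.000347). In HF labelled knockouts it was -0.59 (SE 0.12, adjusted p = 0.00574), with 1 male, replicate 1, inside the female range. On HFCF it was -1.15 (SE 0.16, adjusted p = 0.00161) in controls and -0.87 (SE 0.16, adjusted p = 0.00817) in labelled knockouts, neither with overlap. Each was called in all 10 omissions.

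The genes whose levels followed Tm6sf2 most closely were Cyp2c68, a cytochrome P450 (r = 0.964 over the 48 libraries, 0.735 within groups), Prlr, the prolactin receptor (0.944 and 0.682), and Slc22a26, an organic anion transporter (0.939 and 0.594). Prlr averaged 75.1 CPM in male HF controls and 293 CPM in female HF controls. Cyp2c68 has close relatives in the genome, so its counts are uncertain. Ncan, which shares the human risk locus of Tm6sf2, had at most 0.25 CPM in any library.

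Mttp, which loads lipid onto apolipoprotein B, fell in labelled-knockout HF males (382 to 323 CPM, log2 fold change -0.25, adjusted p = 0.0241) and on HFCF against HF in control males (-0.34, adjusted p = 0.0252). Apob, the structural protein of the particle, was higher in males in all 4 sex comparisons and called in 3, by 0.36 in HF controls (adjusted p = 0.0167), 0.52 in HF labelled knockouts (adjusted p = 0.0191) and 0.54 in HFCF labelled knockouts (adjusted p = 0.0242). Of the 16 genes on this list, 2 rose and 4 fell in labelled-knockout HF males (median -0.03, 18.5% of all genes called). Apoc3, an inhibitor of particle clearance, rose by 0.39 and Sort1, a sorting receptor, fell by 0.81. On HFCF against HF, 3 rose and 5 fell in control males (median -0.19, 22.3% of all genes called). In labelled-knockout males 3 rose and 7 fell (41.7% of all genes called). Tm6sf1, the paralog of Tm6sf2, was among those that rose, by 0.75 in control and 1.30 in labelled-knockout males on the log2 scale, while Tm6sf2 fell.

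Mboat7 was nearly flat. Its group means lay between 45.0 ± 3.22 CPM (n = 4) in HFCF labelled-knockout females and 52.7 ± 1.30 CPM (n = 4) in LF control females, a ratio of 1.17. Single livers ranged from 41.4 to 56.4 CPM. None of the 17 pairs was called by edgeR (2 at an unadjusted p under 0.05, 0 by DESeq2), and the largest log2 fold change was 0.16 in size. The lowest adjusted p was 0.0561, on HFCF against HF in labelled-knockout males, where livers had 43.2 to 49.3 CPM (median 44.4) on HFCF and 46.1 to 54.5 CPM (median 49.5) on HF. There the log2 fold change was -0.14 (SE 0.06). It was called without HF labelled-knockout replicate 3 or 6 or HFCF labelled-knockout replicate 1 (lowest adjusted p = 0.0293), and in one fit of all 10 groups (adjusted p = 0.0368).

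The Mboat7 result stands beside larger changes in some other genes of phospholipid remodelling. On HFCF against HF, 4 of 15 tested genes rose and 1 fell in control males (median 0.12, 22.3% of all genes called). In labelled-knockout males 8 rose and 2 fell (41.7% of all genes called). In control females 4 rose and 1 fell (30.8% of all genes), and in labelled-knockout females 4 rose and 1 fell (14.5%). Lpcat2, which reacylates lysophosphatidylcholine, rose by 0.89 in control males (adjusted p = 0.00352) and by 1.71 in control females (adjusted p = 0.0114). Mboat1, a relative of Mboat7, rose by 1.55 in control males (adjusted p = 0.00306) and by 2.17 in control females (adjusted p = 0.0377). Lclat1, another acyltransferase, fell by 0.23 in control males (adjusted p = 0.014). Macrophage markers moved in the same direction as Lpcat2 in these pairs, and their part was not tested. Tmc4, which lies 236 bases from Mboat7 and shares its human risk locus, had group means of 4.75 to 9.63 CPM. It was lower in males among HFCF controls (log2 difference -0.45, adjusted p = 0.0351).

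Gaa, the lysosomal glucosidase, was the gene most like Mboat7 (r = 0.765 over the 48 libraries, 0.621 within groups). Stau1 (0.722 and 0.468) and Elmo3 (0.703 and 0.463) followed.

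Gckr fell on HFCF. In control males HF livers measured 355, 408, 305, 326, 358 and 307 CPM and HFCF livers 314, 274, 254, 213, 245 and 273 CPM. The groups overlapped through the highest HFCF liver, replicate 1. The log2 fold change was -0.38 (SE 0.09, adjusted p = 0.0095). Labelled-knockout males fell from 320 to 461 CPM (median 405) on HF to 289 to 333 CPM (median 325) on HFCF, a log2 fold change of -0.33 (SE 0.08, adjusted p = 0.00568). Both calls remained in all 12 omissions.

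Control females had 512, 502, 427 and 413 CPM of Gckr on LF, 329, 366, 378 and 411 CPM on HF and 304, 266, 298.5 and 292 CPM on HFCF. The ranges of the 3 diets did not overlap, with LF highest and HFCF lowest. HFCF against LF gave a log2 fold change of -0.70 (SE 0.11, adjusted p = 0.0018), called in all 8 omissions. HFCF against HF gave -0.33 (SE 0.09, adjusted p = 0.0216), a call lost without HF replicate 3 or 4 or HFCF replicate 1 or 2 (log2 -0.35 to -0.29, adjusted p 0.0525 to 0.0665). HF against LF gave -0.33 (SE 0.12) and was not called (adjusted p = 0.208). In labelled-knockout females the log2 fold change was -0.13 on HFCF against HF (SE 0.11) and -0.23 on HFCF against LF (SE 0.14), with adjusted p-values of 0.459 and 0.312.

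Mean Gckr was higher in labelled knockouts than in controls in 4 of 5 comparisons, none of them called by edgeR (3 at an unadjusted p under 0.05, 2 by DESeq2). In HFCF females they had 415, 358, 372 and 386 CPM, all above the 4 controls, and averaged 383 CPM against 290.0 CPM. This log2 fold change of 0.43 (SE 0.11) had adjusted p-values of 0.412 by edgeR and 0.00515 by the DESeq2 Wald test. The authors' deposited table gives 0.43 and an adjusted p of 0.00669 for that pair. In HFCF males the log2 fold change was 0.28 (SE 0.08, adjusted p = 0.0997), with 0.0107 when control replicate 1 was left out and 0.0274 by the DESeq2 Wald test. In HF males it was 0.21 (SE 0.09, adjusted p = 0.127), with 0.0372 when labelled-knockout replicate 6 was left out. On HF in females it was 0.20 and on LF -0.01. Between the sexes, every HFCF labelled-knockout male was below every such female, at a log2 difference of -0.28 (SE 0.09) that edgeR did not call (adjusted p = 0.0776) and DESeq2 and one fit of all 10 groups did.

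Mlxipl, the carbohydrate-responsive factor ChREBP, was called in 3 comparisons and fell in control females on HFCF against LF from 698 to 347 CPM (log2 fold change -1.03, adjusted p = 0.00088). Srebf1, the insulin-responsive factor SREBP1, was called in none of the 17, with the lowest adjusted p at 0.0506. Of 18 genes of glucose phosphorylation and glycolysis, 3 rose and 6 fell in control males on HFCF against HF (median -0.165). In control females 5 rose and 6 fell on HFCF against LF. The shares of all genes called in these pairs were 22.3% and 35.2%. Slc2a2, the main glucose transporter of hepatocytes, fell by 0.53 in control males (adjusted p = 0.000235), and Hkdc1, a hexokinase family member, rose by 1.74 (adjusted p = 0.00341). In labelled-knockout HF males 1 of the 18 rose and 2 fell, with 18.5% of all genes called. Of these, Hk2, the hexokinase of extrahepatic tissues, fell by 1.93 (adjusted p = 5.58e-06).

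Habp2 (r = 0.892), Mst1 (0.891) and Rilp (0.888) were the genes most like Gckr over the 48 libraries. Within groups the values were 0.645, 0.729 and 0.768.

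Trib1 was called once. In control females HF livers had 67.0, 89.3, 82.9 and 71.8 CPM and HFCF livers 48.8, 59.7, 54.5 and 44.9 CPM. All HFCF livers were below all HF livers, with a log2 fold change of -0.56 (SE 0.12, adjusted p = 0.0101) that was called in all 8 omissions. LF control females had 57.9, 45.3, 60.9 and 64.0 CPM, below every HF liver as well, and HF exceeded LF by 0.44 on the log2 scale (SE 0.13) without a call (adjusted p = 0.136).

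Labelled-knockout females on HFCF had 44.0, 48.5, 45.2 and 38.5 CPM of Trib1, the lowest group mean. HF labelled knockouts ranged from 46.6 to 89.8 CPM. The log2 fold change of -0.55 (SE 0.18) was of the same size as in controls and had an adjusted p of 0.0642, or 0.0388 without HF labelled-knockout replicate 1. The DESeq2 Wald test and one fit of all 10 groups called it (lowest adjusted p = 0.0162). In the authors' deposited table its adjusted p was 0.0361. In control males Trib1 was 63.1 ± 7.47 CPM on HF and 60.2 ± 1.33 CPM on HFCF (n = 6 each), a log2 fold change of -0.06 (SE 0.07). The difference between that male diet effect and the female one was 0.51 (SE 0.13), with adjusted p-values of 0.158 by edgeR and 0.0438 by the DESeq2 Wald test. Without female HF control replicate 1 the edgeR value was 0.0105, and the same omission brought the Pnpla3 interaction (-1.79, adjusted p = 0.229) to 0.0337. On HFCF against LF in labelled-knockout females Trib1 had a log2 fold change of -0.49 (SE 0.17, adjusted p = 0.0782), called without LF replicate 4 or HFCF replicate 1 (lowest adjusted p = 0.0381). Between HF control males and females the difference was -0.30 (SE 0.10, adjusted p = 0.0617), called without male replicate 6 or female replicate 1 (lowest adjusted p = 0.0144). The DESeq2 Wald test and a block for the replicate number called it too (lowest adjusted p = 0.0188). In the other sex comparisons Trib1 was higher in males on average, by 0.11 in HF labelled knockouts (adjusted p = 0.75), 0.21 in HFCF controls (adjusted p = 0.197) and 0.43 in HFCF labelled knockouts (SE 0.15, adjusted p = 0.103) on the log2 scale, none of them called.

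Of the Trib1 partners, Cebpa, the transcription factor that TRIB1 targets, fell on HFCF against HF in control males (log2 fold change -0.31, adjusted p = 0.0192), labelled-knockout males (-0.43, adjusted p = 0.000391) and control females (-0.48, adjusted p = 0.0126). In labelled-knockout HF males it rose by 0.21 (adjusted p = 0.0258). Cop1, the ligase, was called in none of the 17 comparisons and kept group means of 49.3 to 54.9 CPM. Trib3, a relative of Trib1, fell in labelled-knockout males by 0.68 on HF (adjusted p = 0.00958) and by 0.67 on HFCF (adjusted p = 0.0212). Of 11 tested genes in this family and its partners, 1 rose and 1 fell in labelled-knockout HF males (18.5% of all genes called). In control females 2 rose and 3 fell on HFCF against HF (30.8% of all genes called). Dcaf8 (r = 0.702), Tbrg4 (0.696) and Dock4 (0.689) were most like Trib1 over the 48 libraries. Within groups those values were 0.478, 0.533 and 0.524.

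None of the 6 genes was called in any of the 7 interaction tests by edgeR, which compare an effect between diets, sexes or genotypes. Of all genes, 1.56% were called for the labelled-knockout effect on HFCF against HF in males, 0.00646% and 0.013% for the diet effect by sex in controls and labelled knockouts, and 0% in the other 4. At an unadjusted p under 0.05 there were 4 results among these tests, namely Hsd17b13 in the first, Pnpla3 and Trib1 for diet by sex in controls, and Tm6sf2 for labelled knockout by sex on HF. DESeq2 called 1 of them, Trib1.

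Variation between mice of the same group was compared over 15 pairs of genes, after each group mean was subtracted from log2 CPM (48 livers, 100000 permutations within groups). Tm6sf2 and Gckr went together most closely, with Pearson's r of 0.613 (permutation p = 2e-05, Benjamini-Hochberg adjusted p = 0.0003) and Spearman's rho of 0.629 (permutation p = 1e-05, the smallest the permutations can give, adjusted p = 0.00015). Without the 2 livers farthest from the median of Tm6sf2, r was 0.561. It was 0.58 in the 24 males and 0.671 in the 24 females. Pnpla3 and Gckr had r = 0.537 (permutation p = 0.00048, adjusted p = 0.0036) and rho = 0.549 (permutation p = 0.00033, adjusted p = 0.00247), with r = 0.507 without the 2 farthest livers. Hsd17b13 and Trib1 went in opposite directions, with r = -0.431 (permutation p = 0.0144, adjusted p = 0.0432), rho = -0.417 (permutation p = 0.014, adjusted p = 0.0301) and r = -0.466 without the 2 farthest livers.

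Of the 15 pairs, 5 had an adjusted p under 0.05 by Pearson's r and 8 by Spearman's rho. Pairs of other genes were not put through this test, so whether such counts are particular to these genes was not tested. The other two Pearson pairs, Pnpla3 with Tm6sf2 (r = 0.362, rho = 0.391) and Mboat7 with Gckr (r = 0.395, rho = 0.415), both had an adjusted p of 0.0432 by r. For Mboat7 with Gckr, r was 0.3 without the 2 farthest livers. In the 24 males alone 5 pairs passed by Pearson's r and in the 24 females alone 1 did, Tm6sf2 with Gckr. The male pairs were not the same 5, as Pnpla3 with Tm6sf2 did not pass (adjusted p = 0.105) and Hsd17b13 with Gckr did (0.0286). In females r was 0.457 for Pnpla3 with Gckr (permutation p = 0.0663) and -0.316 for Hsd17b13 with Trib1 (permutation p = 0.241). For Mboat7 with Gckr it was 0.166 in females (permutation p = 0.491).

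**Figure D4:**
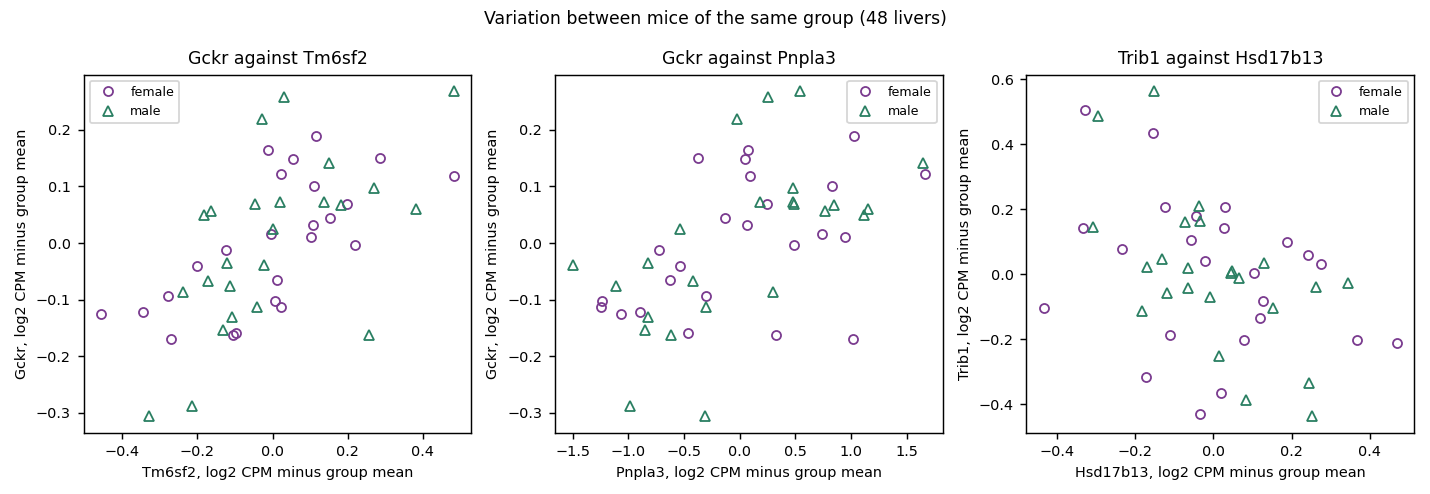
Deviation of log2 CPM from the group mean in 48 livers for 3 pairs of genes, with females as circles and males as triangles. Gckr rises with Tm6sf2 (r = 0.613) and with Pnpla3 (r = 0.537), and Trib1 falls with Hsd17b13 (r = -0.431).

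Of 19 other genes from human fatty liver loci found in the table, 18 could be tested in each comparison. In labelled-knockout HF males 1 rose and 4 fell (median log2 fold change -0.03), with 18.5% of all genes called. Gpam, the first acyltransferase of triglyceride synthesis, fell by 0.67 (adjusted p = 6.76e-05), and Cideb, a droplet protein of VLDL lipidation, rose by 0.22 (adjusted p = 0.0228). On HFCF against HF in control males 2 rose and 7 fell (22.3% of all genes called). Among them Ppp1r3b, a glycogen targeting subunit, fell by 0.83 (adjusted p = 0.00666). In control females 3 rose and 6 fell on HFCF against HF (30.8% of all genes called). Lepr, the leptin receptor, was lower in males in all 4 sex comparisons, by 1.25 in HF controls (adjusted p = 0.0134) and 1.32 in HF labelled knockouts (adjusted p = 0.038) on the log2 scale. In HFCF livers Lepr was lower in males by 1.33 in controls (adjusted p = 0.00636) and 1.08 in labelled knockouts (adjusted p = 0.00287).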

How the data were processed

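RNA from whole liver was sequenced in 48 libraries without strand information, with inserts of 250 to 300 bp, per the labels. STAR 2.6.1, HTSeq 0.6.1 and DESeq2 are named in the submitters' processing notes, with GRCm38 (mm10). The deposited counts are whole reads per gene, per the file headers. The 11 tables were joined by gene ID into 29221 genes, and 0 of 1341082 repeated values differed. Columns without a sample numbered 0. The authors' log2 fold changes and p-values in the deposited tables were used only where they are named.

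Counts were scaled with TMM factors and tested with edgeR 4.0.16 (R 4.3.3), using filterByExpr and the quasi-likelihood test on the groups compared, with Benjamini-Hochberg adjustment over all genes tested. DESeq2 1.42.0 was an alternative. The alternatives tried were DESeq2 size factors, the DESeq2 Wald test, no filter, at least 10 counts in every library, one model over all 10 groups, a block for the replicate number, and leaving out libraries one by one. All 6 genes passed the filter in every comparison. Correlations used log2(CPM + 0.5). Each library was taken as 1 mouse, as its animal number in the labels gives it. The scripts were tested on simulated data.

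Besides the 6 genes, those named are Pparg, 12 fixed partners or neighbours, up to 2 called genes higher and 2 lower per pathway list and comparison, and the 3 genes most correlated with each of the 6 over all libraries (mean of at least 1 CPM). Tsen34 and Pnpla5 were named for their position. The 6 genes and the lists were chosen with earlier results of these data known. Female LF labelled-knockout replicate 2 carries slightly different animal numbers in the sample label and in the series text, and was used as labelled. Some genes of the fixed lists are not reported here by name.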

Additional observations from a re-analysis of the deposited data

Results flagged for a closer look

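In 60 groups of 4 or 6 livers (6 genes in 10 groups), 2 had a single liver set apart from the others by Dixon's criterion, which chance meets in about 1 in 20 groups. Tm6sf2 was 36.66 CPM in labelled-knockout HFCF male replicate 6, where the next liver had 28.41 CPM. Hsd17b13 was 938.8 CPM in control HF male replicate 5, where the next had 746.5 CPM. Without the first liver the labelled-knockout difference of Tm6sf2 in HFCF males was 0.44 on the log2 scale and was not called (adjusted p = 0.1).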

How the results depend on the processing

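No called result of the 6 genes changed direction under any alternative. Of the 19 calls, 18 remained with DESeq2 size factors, 19 with the DESeq2 Wald test, 19 with no filter, 19 with at least 10 counts in every library and 18 with all groups in one fit. Of 194 results with 1 library left out, 161 remained called and 33 did not. With the replicate block 13 of 19 remained. Livers of the same number had correlations of deviations from -0.295 to 0.462. No threshold was set for these, so they do not settle whether the numbers pair the livers. The calls lost with the replicate block were Tm6sf2 in HFCF males (0.53), Gckr (-0.29), Pnpla3 (1.28) and Trib1 (-0.53) in control females on HFCF against HF, and Pnpla3 (-1.64) and Tm6sf2 (-1.08) between HFCF control males and females.

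The number of the 6 genes called moved by more than 1.5 times as follows, and the cause was not tested. For labelled knockouts in HFCF males (1) it was 0 with DESeq2 size factors, 2 with the Wald test, 0 with the replicate block and 0 to 2 with a library left out. In HFCF females (0) the Wald test gave 1. For HF against LF in control females (0) the Wald test and one fit of all groups each gave 1. For HFCF against HF it was 0 with the replicate block and 1 to 3 with a library left out in control females (3). In labelled-knockout females (0) it was 2 by Wald, 1 with no filter, 1 in one fit, 1 with the replicate block and 0 to 1 with a library left out. For HFCF against LF in labelled-knockout females (1) it was 2 by Wald, 2 with no filter, 2 in one fit and 0 to 2 with a library left out. Between the sexes it was 2 by Wald, 2 with the replicate block and 1 to 2 with a library left out in HF controls (1), and 1 to 2 with a library left out in HF labelled knockouts (1). In HFCF controls (2) it was 1 in one fit, 0 with the replicate block and 1 to 2 with a library left out. In HFCF labelled knockouts (1) it was 2 by Wald, 2 with no filter and 2 in one fit. For diet by sex in controls (0) it was 1 by Wald and 0 to 2 with a library left out. Smaller moves were in labelled-knockout HF males (2), with 3 under the replicate block, where Gckr was gained (adjusted p = 0.0471), and 3 without labelled-knockout replicate 6, and in HFCF against HF in labelled-knockout males (2), where one fit added Mboat7 and 5 omissions added Mboat7 or Pnpla3. Of 15 correlated pairs, 5 passed in all livers and 1 in females alone. The depth limits Pnpla3 most, at 5 to 526 reads in a library.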
